A study of Mus musculus with 6 samples.

Results

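Identity and activation markers of fibroblasts, 9 genes in all, were followed in mouse embryonic fibroblasts: Fap, Dpp4, Pdgfra, Pdgfrb, Thy1, Pdpn, Cspg4, Vim and S100a4. They were taken by name, and each was read from the probe set that carried its symbol alone. All 9 were measured, among 19856 genes in all. The series compared a tetraploid line, which the labels call 174 and the series title calls transformed, with a diploid line called FW, labelled as the normal control. Each was hybridised to 3 arrays, and both were grown in medium with 10% fetal bovine serum to 80% confluence. With 1 line per ploidy, effects of ploidy, of transformation and of the line itself cannot be told apart. Whether the 3 samples came from separate cultures is not given in the labels, so p-values measure only the spread between these samples.

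Fibroblasts are the connective tissue cells that lay down and remodel collagen matrix, and no single gene marks all of them. The platelet-derived growth factor (PDGF) receptors PDGFRA and PDGFRB drive their growth and migration, and vimentin forms their cytoplasmic filaments. FAP is a membrane serine protease that appears on activated fibroblasts of wounds, scars and tumours, and most of the other markers are surface glycoproteins shared with pericytes, lymphocytes, macrophages or glial precursors. VIM and S100A4 act mainly inside the cell and are markers of fibroblasts without being surface proteins.

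The labelled cell type was first set against 14 genes that define fibroblasts through their matrix. All 14 lay above background on at least 3 arrays. Background was taken on each array as the 95th percentile of 1027 olfactory receptor genes, and it lay between 7.01 and 7.41 on the log2 scale of the deposited signal. The collagen gene Col1a1 stood at 13.05 ± 0.28 in the tetraploid line and 13.92 ± 0.03 in the diploid line, and the proteoglycan gene Dcn at 11.95 ± 0.19 and 11.48 ± 0.44 in the same order (SD, n = 3 each, as for every later level). Lum, another matrix proteoglycan gene, lay below background on all tetraploid arrays. The test called 7 of the 14 lower and 0 higher, against 14.0% of all genes called. Of the 7 calls, 2 were made in all 6 fits that left out 1 array, Col5a1 and Col5a2, and that of Col1a1 was made in 1, without tetraploid array 3. Apart from Lum, each of these matrix transcripts thus lay above background on at least 1 array of each line. The other 7 of the 14 were not called.

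The 9 markers did not move as one. Fap and Cspg4 fell in the tetraploid line, while the other 7 markers missed the threshold, a limma adjusted p below 0.05 over all genes, and 0 rose. That is 22.2% of the markers, against 14.0% of all genes called in either direction 7.80% called lower and 6.15% called higher. The arrays of the lines did not overlap in 6 of the 9 markers, 5 lower and 1 higher in the tetraploid line, whereas 37.3% of all genes did not overlap, 18.2% lower and 19.1% higher. The median difference was -0.83 over the 9 markers and 0.07 over all genes. Of the 9 markers, 8 lay above background on at least 3 arrays and 6 on all 6 arrays. Among all genes above background on at least 3 arrays, 19.3% were called. Since these are bulk samples, fewer cells that carry a transcript and less of it per cell cannot be told apart.

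**Figure D1:**
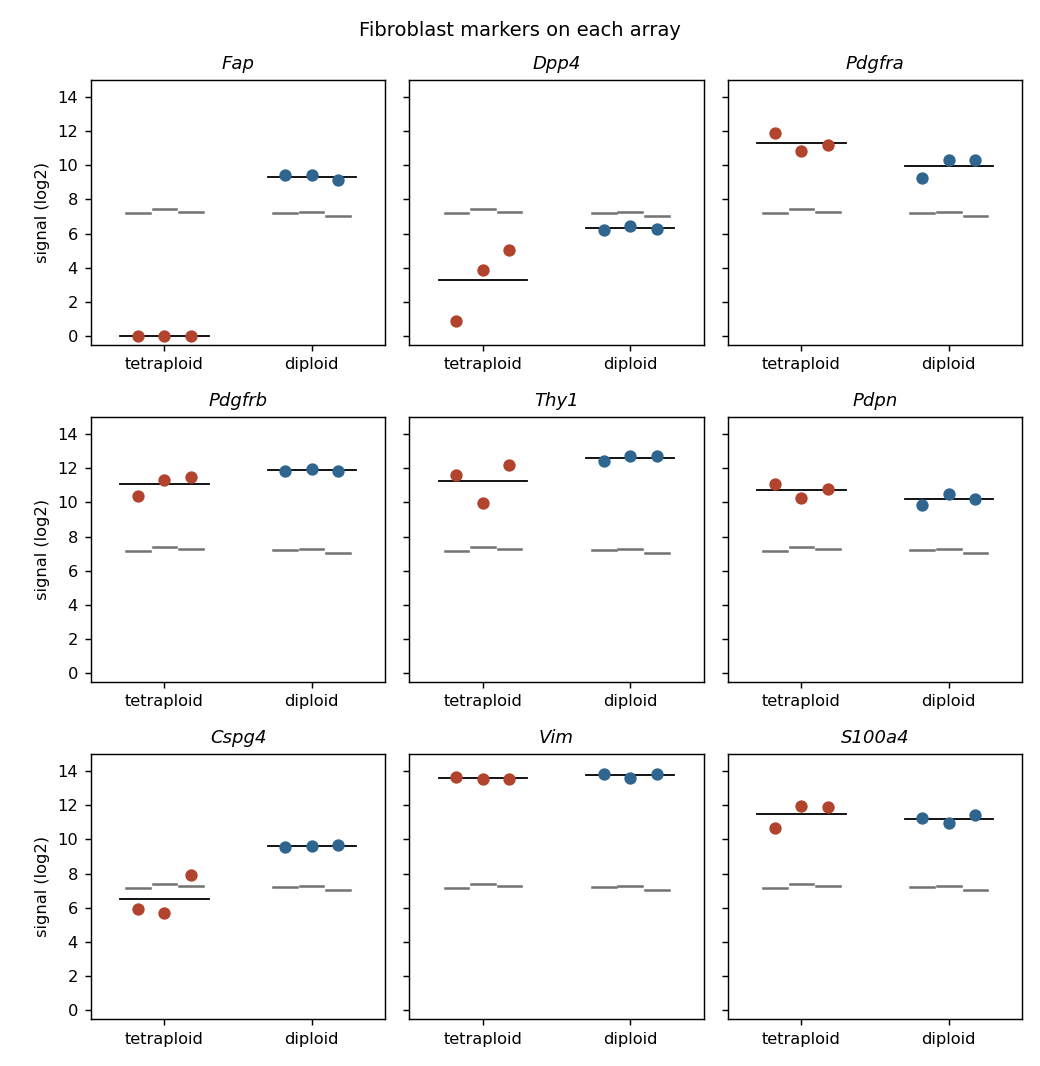
Signal of each of the 9 fibroblast markers on the 3 tetraploid arrays (left in each panel) and the 3 diploid arrays (right), on a log2 scale. Points are arrays, black lines are group means and short grey lines give the background level of that array. Fap lay near 0 on the tetraploid arrays, while Vim lay above 13.5 on all 6.

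Fap had the largest deposited difference of the 9 markers, and Cspg4 the largest with values raised to background (-2.11, against -2.03 for Fap). The signal of Fap was 0.01, 0.03 and 0.01 on tetraploid arrays 1 to 3, against 9.42, 9.43 and 9.10 on diploid arrays 1 to 3. On the linear scale these were 1.01 to 1.02 in the tetraploid line, against 551 to 691 in the diploid line, where 1 is the lowest value the deposited table holds. The tetraploid arrays therefore gave no level for Fap but only an upper limit, and every diploid array lay well above background. With all values raised to the background of their array, Fap was at least 4.09-fold lower in the tetraploid line (limma adjusted p = 1.91e-05). All its tetraploid values were then background levels, so this p does not measure their spread. As deposited, the difference of Fap was -9.30 with a standard error of 0.19 (limma adjusted p = 8.31e-06), the most negative of all genes. Raised to background it ranked 176 of 19856, so its first place rests on values below background. Fap stayed below an adjusted p of 0.05 in all 6 fits that left out 1 array (0.000188 to 0.000339).

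Dpp4 encodes the closest relative of FAP, a surface peptidase that clips dipeptides off chemokines and incretin hormones and marks progenitor-like fibroblasts of several tissues. It read 0.90, 3.86 and 5.04 on the tetraploid arrays, against 6.22, 6.46 and 6.28 on the diploid arrays. All tetraploid values lay below all diploid ones, but all 6 lay below background, so no fold is given. The deposited difference of -3.05 did not pass the test (limma adjusted p = 0.0784), and it did pass without tetraploid array 1 or tetraploid array 3 (0.0340 and 0.0392). The other genes of this family did not pass the test. Of the 7 measured 0 were called, against 14.0% of all genes, and the median difference of the 7 was -0.27. The arrays of the lines did not overlap in 2 of the 7, Dpp8 and Prepl, and in 37.3% of all genes. Dpp8 stood at 9.74 ± 0.19 in the tetraploid line and 10.14 ± 0.10 in the diploid line (limma adjusted p = 0.240), and Prep at 10.63 ± 0.23 and 10.90 ± 0.18 in the same order (0.457). Dpp7 had a difference of -0.65, Dpp9 of -0.05 and Prepl of 0.35, while Dpp6 and Dpp10 lay below background on all 6 arrays.

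Fap and Dpp4 lie close together on chromosome 2, with the glucagon gene Gcg as the measured gene between them. Around Fap, 7 of the 8 nearest measured genes lay at or below background on all 6 arrays. Of the 8, 0 were called, against 14.0% of all genes. Dpp4 is among these 8. Ifih1, an RNA sensor gene next to Fap, read 5.71 ± 0.73 in the tetraploid line and 7.25 ± 0.57 in the diploid line, with a deposited difference of -1.54 (limma adjusted p = 0.0626). Psmd14, a proteasome gene beyond Dpp4 on the other side, had a difference of 0.05 (0.906). For the 7 neighbours of Fap at or below background, no level could be compared between the lines.

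The PDGF receptor genes differed in opposite directions, and neither passed the test on the values as deposited. Pdgfra, the receptor for PDGF-AA and PDGF-CC among others, read 11.91, 10.85 and 11.20 on the tetraploid arrays, against 9.22, 10.29 and 10.28 on the diploid arrays. Every tetraploid array was higher, by a mean of 1.39 (95% interval 0.45 to 2.33, 2.62-fold, limma adjusted p = 0.0618). Diploid array 1 lay well below the other diploid arrays. Pdgfrb, the receptor for PDGF-BB and PDGF-DD, read 10.39, 11.28 and 11.46 on the tetraploid arrays, against 11.84, 11.93 and 11.84 on the diploid arrays. Every tetraploid array was lower, with a mean difference of -0.83 (95% interval -1.55 to -0.10, limma adjusted p = 0.124). Tetraploid array 1 held both the highest Pdgfra and the lowest Pdgfrb.

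Within an array, the log2 difference of Pdgfra minus Pdgfrb was 1.52, -0.43 and -0.26 on the tetraploid arrays, against -2.62, -1.64 and -1.56 on the diploid arrays. Its mean was 0.28 ± 1.08 in the tetraploid line and -1.94 ± 0.59 in the diploid line, 2.22 apart on the log2 scale. This pair was set side by side after its values were seen and is given without a test. The call for each receptor changed with the settings of the fit. Pdgfra stayed uncalled in 11 of 15 alternatives and Pdgfrb in 12 of 15, with limma adjusted p up to 0.152 and 0.278. With a replicate block they had 0.126 and 0.151, and with array weights 0.0864 and 0.109. With only the 11193 genes above background on at least 3 arrays in the fit, Pdgfra had a limma adjusted p of 0.0243 and Pdgfrb of 0.0584. With all values raised to background they had 0.0125 and 0.0386, and with an intensity trend and robust variances 0.0419 and 0.0418. All values of both receptors lay above background, so raising left them unchanged. Their p changed there only through the other genes in the fit.

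Of the 4 genes for ligands of these receptors, the test called 3 lower and 0 higher, against 7.80% and 6.15% of all genes. The arrays did not overlap in any of the 4, nor in 37.3% of all genes. Pdgfd, a ligand of PDGFRB, read 5.70, 4.42 and 4.44 on the tetraploid arrays, all below background, against 9.57, 9.29 and 9.44 on the diploid arrays. It was at least 4.42-fold lower (limma adjusted p = 0.00109 as deposited). Pdgfa, a ligand of PDGFRA, read 9.48, 7.87 and 8.99 on the tetraploid arrays, against 10.56, 10.46 and 10.12 on the diploid arrays (3.03-fold lower, 0.0462). Pdgfb read 3.64 ± 1.06 in the tetraploid line and 6.49 ± 0.89 in the diploid line. Only diploid array 1 lay above background for it, and its call ended with values raised to background (limma adjusted p = 0.029 as deposited, 0.810 when raised). Pdgfc, which also binds PDGFRA, stood at 9.84 ± 0.79 in the tetraploid line and 10.80 ± 0.18 in the diploid line (0.156).

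The fall of Pdgfd was called in all 6 fits that left out 1 array. Those of Pdgfa and Pdgfb were called in 1 of the 6, without tetraploid array 1, and the count of ligands that fell was 1 in each of the 5 other fits. Downstream of the receptors, 3 of 29 measured adaptor, kinase and phosphatase genes fell and 26 did not pass, a share of 10.3% against 14.0% of all genes. Grb10, an imprinted adaptor that binds PDGF and insulin receptors, read 4.34, 5.39 and 3.54 on the tetraploid arrays, against 12.61, 12.73 and 12.65 on the diploid arrays, and was at least 41.4-fold lower (limma adjusted p = 0.000289). Crk, an adaptor, was 1.94-fold lower (0.0175), and Cbl, a ubiquitin ligase gene that ends receptor signalling, was 1.77-fold lower (0.0348). The call of Crk ended without any 1 diploid array (0.0662 to 0.0779). That of Cbl remained in 1 of 6 such fits, the one without tetraploid array 3.

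**Figure D2:**
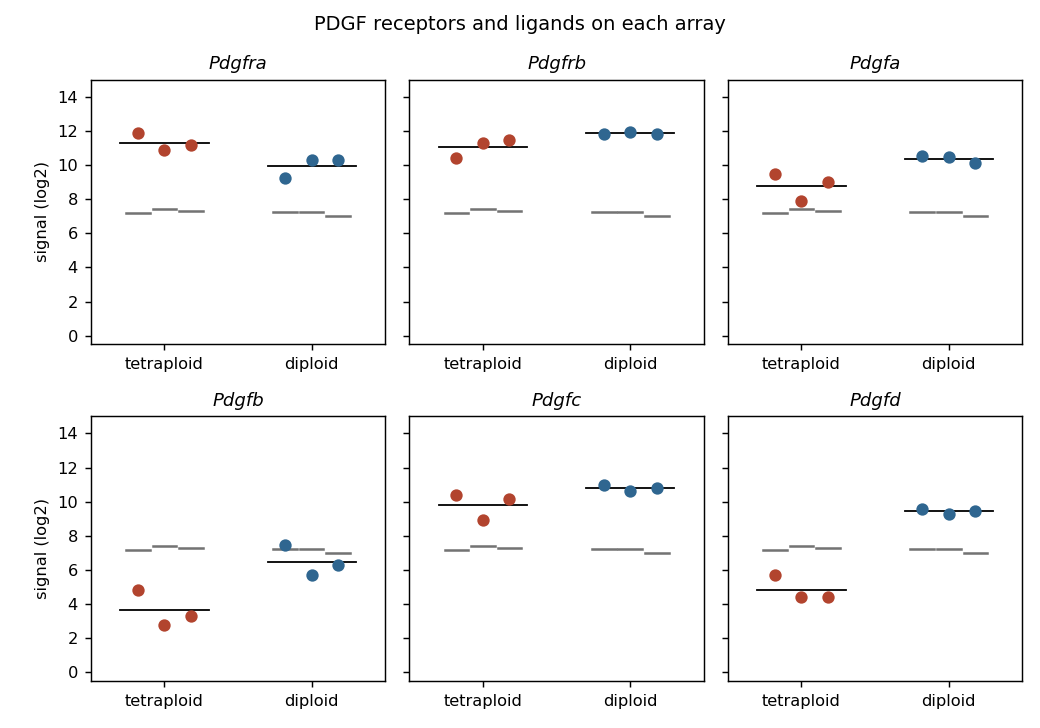
Signal of the PDGF receptor genes Pdgfra and Pdgfrb and of the ligand genes Pdgfa, Pdgfb, Pdgfc and Pdgfd on the 3 tetraploid arrays (left in each panel) and the 3 diploid arrays (right), on a log2 scale. Points are arrays, black lines are group means and short grey lines give the background level. Pdgfra was the gene of these 6 with all tetraploid arrays above all diploid arrays.

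Cspg4 was the other marker that fell. It encodes a chondroitin sulphate proteoglycan of pericytes and glial precursors that binds collagen and growth factors. It read 5.95, 5.67 and 7.93 on the tetraploid arrays, against 9.57, 9.61 and 9.65 on the diploid arrays. Only tetraploid array 3 lay above background among the tetraploid arrays, and the 3 diploid arrays were close to each other. Cspg4 was 8.56-fold lower as deposited (difference -3.10, standard error 0.57, limma adjusted p = 0.0164). With values raised to background it was 4.31-fold lower (limma adjusted p = 6.67e-05). Raising set tetraploid arrays 1 and 2 to their background levels, so the second p does not measure the spread of their signal. The call of Cspg4 as deposited ended without diploid array 1, 2 or 3 (0.0535, 0.0613 and 0.0577), which left 1 marker called, Fap. Of all called genes, 27.5% were called in all 6 such fits.

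Cspg4 and Pdgfrb also mark pericytes, and 2 of 10 other pericyte and mural markers fell, 20% against 14.0% of all genes called. Mcam, an adhesion molecule gene, stood at 6.63 ± 1.69 in the tetraploid line and 10.63 ± 0.20 in the diploid line (limma adjusted p = 0.0182). The smooth muscle myosin heavy chain gene Myh11 was lower by at least 4.67-fold (0.00389). The defining pericyte genes Rgs5, Kcnj8, Abcc9 and Higd1b lay below background on all 6 arrays. The summed linear signal of the 10 genes was 534 to 1221 on the tetraploid arrays, against 2707 to 3303 on the diploid arrays, and its part in the fall of Cspg4 was not tested. Leaving out tetraploid array 2 or any 1 diploid array ended the call of Mcam (0.0589 to 0.0632).

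Thy1 and Pdpn, both surface glycoprotein genes, gave different patterns. Thy1, a glycolipid-anchored adhesion protein, read 11.63, 9.97 and 12.16 on the tetraploid arrays, against 12.43, 12.70 and 12.72 on the diploid arrays. Every tetraploid array was lower, tetraploid array 2 most of all, and the difference of -1.36 did not pass the test (95% interval -2.62 to -0.10, limma adjusted p = 0.141). Without tetraploid array 2 it was -0.72 (0.147). Pdpn, a mucin-type protein that binds the platelet receptor CLEC1B and the cytoskeletal linkers ezrin and moesin, read 11.05, 10.27 and 10.80 on the tetraploid arrays, against 9.87, 10.50 and 10.19 on the diploid arrays. The lines overlapped, and the difference was 0.52 (95% interval -0.15 to 1.19, 0.279). Thy1 is also a T lymphocyte marker. Of 7 measured T lymphocyte genes 0 were called, against 14.0% of all genes. The summed linear signal of the 7 was 748 to 973 on the tetraploid arrays, against 698 to 816 on the diploid arrays.

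Of 12 measured genes for binding partners of PDPN and THY1, 5 fell (41.7%, against 14.0% of all genes called), 0 rose and 7 did not pass. They were integrin genes and the linker gene Msn. Itgb3, an integrin subunit that binds THY1, stood at 7.19 ± 0.53 in the tetraploid line and 9.94 ± 0.33 in the diploid line (limma adjusted p = 0.00418), with 1 tetraploid array above background, and was 5.64-fold lower with values raised to background. Its usual partner Itgav was 2.22-fold lower (0.0124), the fibronectin receptor gene Itga5 2.94-fold lower (0.0124) and Msn 1.80-fold lower (0.0447). Itgb5, the other integrin gene called, had a difference of -0.85. The call of Itgb3 was made in all 6 fits without 1 array. That of Itga5 ended without diploid array 1 (0.0508), that of Itgav without diploid array 1 or 2 (0.0562 to 0.0569), and those of Msn and Itgb5 in 5 of the 6 fits.

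The intracellular markers Vim and S100a4 did not separate the lines. Vim read 13.63, 13.56 and 13.55 on the tetraploid arrays, against 13.85, 13.62 and 13.84 on the diploid arrays. Tetraploid array 1 lay just above diploid array 2, and the 95% interval of the difference ran from -0.62 to 0.25 (-0.19, limma adjusted p = 0.557). With quantile normalization the difference of Vim was 0.01. S100a4, a calcium-binding protein gene active in migrating fibroblasts and in macrophages, read 10.67, 11.95 and 11.88 on the tetraploid arrays, against 11.24, 10.95 and 11.43 on the diploid arrays. Tetraploid array 1 lay below all diploid arrays and the other two above them (difference 0.29, 95% interval -0.59 to 1.18, 0.661).

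Relatives of S100a4 and Vim were called at different shares, 6.67% of S100 genes and 40% of intermediate filament and lamin genes, against 14.0% of all genes. Of 15 other S100 genes 1 fell and 14 did not pass, with a median difference of 0.21. S100a5, close to background, read 6.21 ± 0.24 in the tetraploid line and 7.50 ± 0.16 in the diploid line, and its call ended with values raised to background (limma adjusted p 0.0125 as deposited, 0.422 when raised) and without diploid array 1 (0.0543). S100a6, next to it on chromosome 3, stood at 12.92 ± 0.07 in the tetraploid line and 12.71 ± 0.10 in the diploid line (0.509). Of 15 other intermediate filament and lamin genes 4 fell, 2 rose and 9 did not pass. Des, the muscle filament gene, was at least 3.17-fold lower (0.00138), and Sync, which encodes a desmin-binding filament protein, at least 1.67-fold lower (0.0322). Krt18 and Krt7, epithelial keratin genes, also fell as deposited, but with values raised to background neither passed (both 0.463). Lmnb1 and Lmnb2, the B-type lamin genes, were the genes that rose, with differences of 0.95 and 0.96. Of these 6 calls that of Des was made in all 6 fits without 1 array, and 0 genes rose in 5 of the 6, all but that without diploid array 3.

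**Figure D3:**
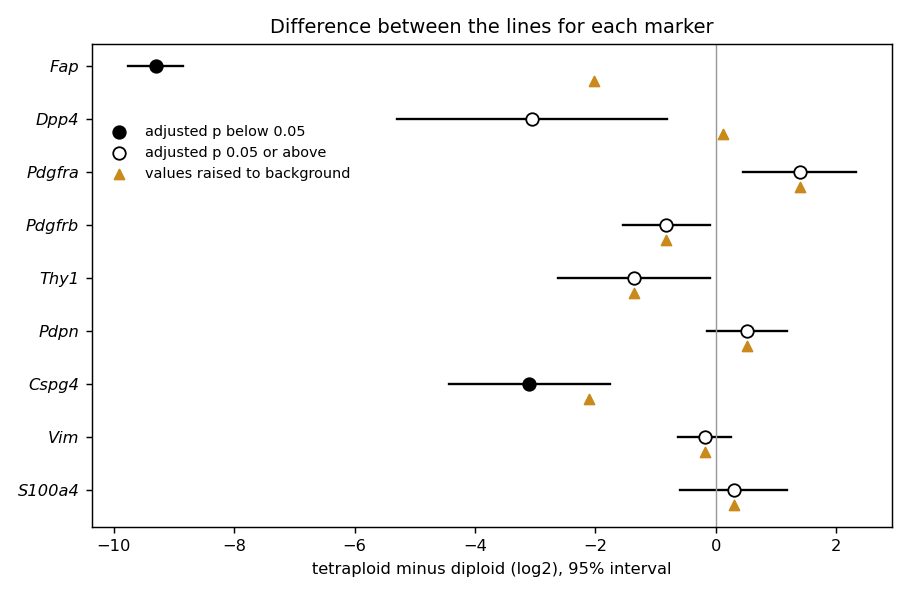
Difference of tetraploid minus diploid in log2 units for each of the 9 markers, with the 95% interval of the limma fit. Filled circles passed the test and open circles did not, and triangles give the difference with every value raised to the background of its array. Fap and Cspg4 are the filled points, and raising to background moved Fap to -2.03 and Cspg4 to -2.11.

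Several of the 9 genes are also active in other cell types, whose markers were examined. S100A4 is made by macrophages, and 3 of 17 macrophage and leukocyte genes fell as deposited, 17.6% against 14.0% of all genes called. Of these 3 calls 0 remained with values raised to background. The summed linear signal of the 17 genes was 558 to 957 on the tetraploid arrays, against 798, 2064 and 3514 on diploid arrays 1 to 3. Of the 17 genes, 15 exceeded background on no tetraploid array, whereas 7 exceeded it on no diploid array. Their mean log2 signal was 4.11, 4.35 and 4.06 on tetraploid arrays 1 to 3. On diploid arrays 1 to 3 it was 4.85, 6.43 and 7.18. Among the 7 genes that exceeded background on none of the 6 arrays were the pan-leukocyte gene Ptprc and the macrophage genes Adgre1 and Itgam. Adgre1 read 0.00 and Itgam 0.01 on tetraploid array 1. S100a4 on the diploid arrays did not follow the order of the summed signal. The part of such cells in the S100a4 signal was not tested. PDPN marks lymphatic vessels and mesothelium. Of 4 lymphatic genes 1 fell, Flt4, and of 7 mesothelial genes 3 fell, Upk1b, Lrrn4 and Wt1. Lrrn4 and Wt1 lay below background on all 6 arrays. The shares called were 25% and 42.9%, against 14.0% of all genes. The summed signals were 599 to 764 on the tetraploid arrays, against 923 to 977 on the diploid arrays, for the lymphatic genes. For the mesothelial genes they were 242 to 2372 on the tetraploid arrays, against 757 to 1164 on the diploid arrays.

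PDGFRA and CSPG4 mark glial precursors, and of 11 neural and glial genes 1 fell, Ncam1, with summed signals of 5637 to 6301 on the tetraploid arrays, against 6988 to 7948 on the diploid arrays. Endothelial genes fell in 3 of 10 (903 to 1029 summed on the tetraploid arrays, against 1294 to 1449 on the diploid arrays), and epithelial genes in 1 of 12 (1576 to 2749 and 1830 to 2248, in the same order). Skeletal muscle genes fell in 4 of 8 (659 to 1023 and 3805 to 6144, in the same order). No gene of these lists rose. The shares called were 9.09% (neural and glial), 30% (endothelial), 8.33% (epithelial) and 50% (muscle), against 14.0% of all genes. With values raised to background, 1 of the 3 endothelial calls remained, Kdr (limma adjusted p = 0.0250), while Emcn and Erg did not pass (0.337 and 0.463). The endothelial genes Kdr and Emcn and the muscle genes Acta1, Des and Actn2 were called in all 6 fits without 1 array.

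Beyond the 9 markers, genes of activated fibroblasts were examined. The test called 15 of 18 measured lower and 0 higher, a share of 83.3% against 14.0% of all genes, with a median difference of -2.01 against 0.07 over all genes. This list was drawn up with earlier results of these data known and is no independent evidence of its direction. Cthrc1, a collagen-processing gene of scars, read 4.70, 4.33 and 2.42 on the tetraploid arrays, against 9.94, 10.12 and 10.09 on the diploid arrays (at least 6.79-fold lower, limma adjusted p = 0.00156). Inhba, which encodes the activin subunit, stood at 8.52 ± 0.49 in the tetraploid line and 12.37 ± 0.26 in the diploid line (14.4-fold lower, 0.000952). Tnc, a wound matrix gene, was 8.72-fold lower (0.0127), and Lrrc15, a surface protein gene of activated fibroblasts, 6.75-fold lower (0.0456).

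Acta2, Cdh2 and Grem1 were the 3 that did not pass, named after their values were seen. Acta2, the smooth muscle actin gene of myofibroblasts, stood at 13.26 ± 0.67 in the tetraploid line and 14.31 ± 0.02 in the diploid line (limma adjusted p = 0.0894). Between 8 and 14 of the 18 genes fell in the fits without 1 array, with the lowest count without diploid array 2 or 3. In all, 7 genes were called in all 6 fits, among them Cthrc1, Inhba and Tnc. The call of Lrrc15 remained in 1 of them, without tetraploid array 3.

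Other stromal surface markers went both ways. Of 21 measured, 3 rose, 7 fell and 11 did not pass, a share called of 47.6% against 14.0% of all genes. Mme, a surface metallopeptidase gene, read 10.57, 12.49 and 11.58 on the tetraploid arrays, against 7.35, 7.04 and 7.95 on the diploid arrays (17.1-fold higher, limma adjusted p = 0.00457). Cd34, a sialomucin gene of fibroblast progenitors, read 11.80, 11.50 and 10.64 on the tetraploid arrays, against 7.60, 7.77 and 8.21 on the diploid arrays (11.0-fold higher, 0.00241). Cd55, a complement regulator gene, was at least 2.43-fold lower (0.0207). Leaving out tetraploid array 3 or any 1 diploid array ended its call (0.0587 to 0.0697). Islr, the third gene that rose, was at least 5.79-fold higher (0.00203) and is named after its value was seen. The calls of Mme, Cd34 and Islr were made in all 6 fits without 1 array, while the number of genes that fell was 1 to 6 in them, lowest without diploid array 1.

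Genes of resting fibroblasts also went both ways, with 2 that rose, 3 that fell and 11 of 16 that did not pass. The 2 that rose were Dpt and Cd34, and Cd34 is also counted above among the stromal surface markers. The share called was 31.25%, against 14.0% of all genes. Dpt, a matrix protein gene of resting fibroblasts, stood at 10.36 ± 0.87 in the tetraploid line and 7.36 ± 0.43 in the diploid line (7.98-fold higher, limma adjusted p = 0.00977). Mfap5, a microfibril gene, read 6.17, 2.74 and 7.92 on the tetraploid arrays, against 10.54, 10.53 and 10.47 on the diploid arrays (0.0358), and Lum was at least 3.34-fold lower (0.0172). Pi16, which marks the same fibroblasts as Dpp4 in several tissues, lay below background on 6 arrays and is named after its value was seen. The call of Lum ended without diploid array 2 or 3 (0.0630 to 0.0656), and that of Mfap5 without tetraploid array 1 or any 1 diploid array (0.0738 to 0.104). In the fits without 1 array, 0 to 4 of these genes fell, with 0 when diploid array 3 was left out and 1 when diploid array 1 or 2 was.

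Transcription factors of mesenchyme showed no common direction, with 5 that rose, 4 that fell and 15 of 24 that did not pass. Their median difference was 0.00, and 37.5% were called, against 14.0% of all genes. The number that rose was 2 in 5 of the 6 fits without 1 array, and 4 without tetraploid array 1. Foxd1 read 1.87 ± 1.05 in the tetraploid line and 7.80 ± 0.17 in the diploid line (at least 1.43-fold lower, limma adjusted p = 0.00116 as deposited). Foxf1 was at least 1.81-fold lower and Ebf3 at least 1.34-fold lower (0.00104 and 0.0127 as deposited). Meox1 stood at 8.23 ± 0.91 in the tetraploid line and 2.74 ± 2.33 in the diploid line (at least 2.09-fold higher, 0.0218). With values raised to background Foxd1 and Foxf1 passed at 0.0297 and 0.0102, and Ebf3 and Meox1 did not pass (0.0739 and 0.0661). The call of Meox1 also ended without tetraploid array 2 or 3 (0.0612 to 0.0738).

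**Figure D4:**
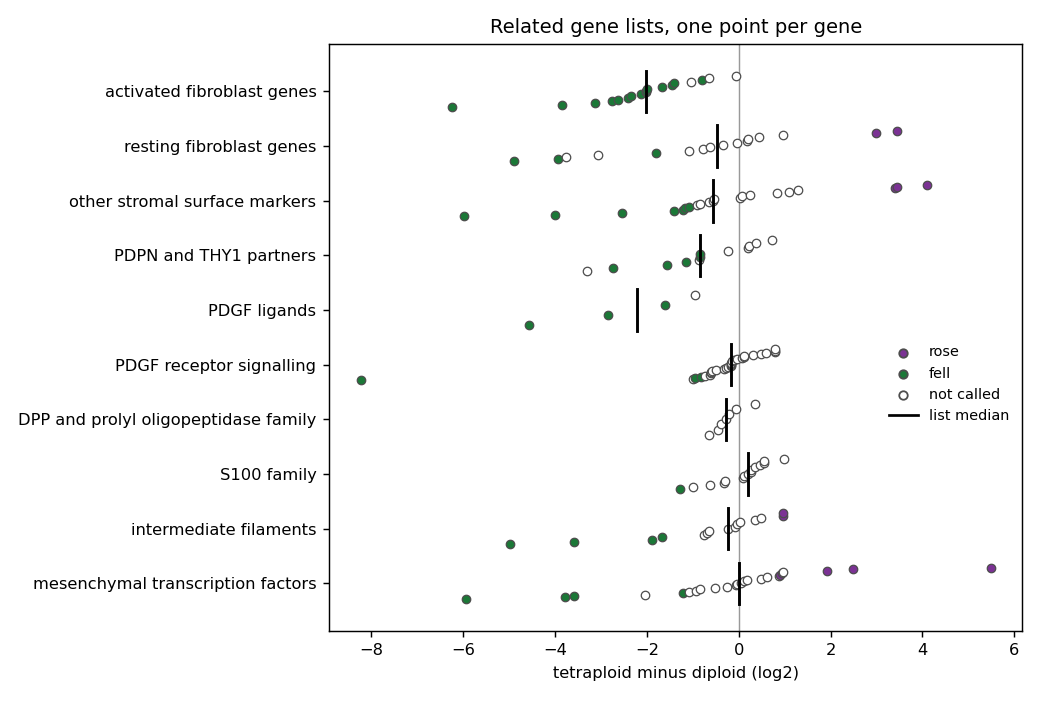
Difference of tetraploid minus diploid in log2 units for genes related to the 9 markers, 1 point per gene and 1 row per list, with the list median as a black line. Filled points passed the test in either direction and open points did not. Activated fibroblast genes had a median of -2.01, while the peptidase family of FAP and DPP4 held no filled point.

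The 9 markers also differed in which genes ran most like them over the 6 arrays. Likeness was the Euclidean distance between log2 profiles, each centred on its own mean, among the genes above background on at least 3 arrays. Nearest to Fap were C1qtnf3 at a distance of 1.20, Smpdl3a at 1.42 and Ptprd at 1.84, all far below background on the tetraploid arrays, so this likeness restates low tetraploid and higher diploid values. For Dpp4 none are given, since its signal lay below background on all 6 arrays. Nearest to Cspg4 were Enpp5 (0.61), Pakap (0.67) and Rtn2 (0.70), in each of which tetraploid array 3 was the highest of its line.

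Pdgfra ran closest to the metabolic kinase gene Pdk1, at a distance of 0.20, which read 9.16, 8.07 and 8.41 on the tetraploid arrays, against 6.48, 7.57 and 7.32 on the diploid arrays. Mdm1 (0.60) and Abca1 (0.63) followed. Pdgfrb ran closest to Hexim1 (0.14), Nfkbiz (0.19) and Uap1l1 (0.22), and Thy1 to Creb3l1 (0.31), Hoxc9 (0.47) and Cyba (0.51), each lowest on tetraploid array 2. Pdpn ran closest to the cytokine feedback gene Socs3 (0.12), then Pfkl (0.27) and Cpt2 (0.30). Vim ran closest to Tmem184b (0.08), Eif3a (0.11) and Larp4b (0.12), and S100a4 to Slc10a7 (0.37), Tcf7l2 (0.37) and Nab2 (0.38). These profiles rest on 6 arrays and on the same libraries, and they are given as a description.

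Chromosomal neighbours of the markers were called at a share near that of all genes. Of 65 measured neighbours, up to 4 on each side of a marker, 1 rose, 7 fell and 57 did not pass, a share of 12.3% against 14.0% of all genes. Mcam, 4 genes from Thy1, and Kdr, a VEGF receptor gene 2 genes from Pdgfra and at least 1.79-fold lower (limma adjusted p = 0.00270 as deposited), were among those that fell. Kit, the receptor gene between Pdgfra and Kdr, lay below background on all 6 arrays. Csf1r, the macrophage growth factor receptor gene beside Pdgfrb, had a difference of 0.18 (0.905). Peak1, 3 genes from Cspg4, had a difference of -1.03 (0.0190). It was the 1 called of the 8 neighbours of Cspg4, whose median difference was -0.64, against 0.07 over all genes. Every tetraploid array lay below every diploid array for Tspan3, Peak1, Lingo1, Snx33, Imp3, Snupn and Ptpn9, as for 18.2% of all genes. The other neighbour, Odf3l1, lay below background on all 6 arrays.

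Promoter windows of 300 bases, 250 before and 50 after the gene start, were taken from RefSeq (GRCm38.p6) for 6 of the 9 markers. Of these, 4 are shown in coding direction: Cspg4 as a marker that fell, and Pdpn, Vim and S100a4 as the markers whose arrays overlapped between the lines. The windows of Pdgfra and Dpp4 are not shown, since they are placed on another start than that of the gene in the RefSeq gene table. The windows are chr9:56864854-56865153 (plus strand) for Cspg4, chr4:143299515-143299814 (minus strand) for Pdpn, chr2:13574061-13574360 (plus strand) for Vim and chr3:90603520-90603819 (plus strand) for S100a4. Capitals mark matches on either strand to 4 motifs searched. The TATA box was searched as TATAAA. The element named the CCAAT box was searched by the letters of its name. The GC box of SP family factors was searched as GGGCGG. The AP-1 element, bound by FOS and JUN factors, was searched as TGANTCA. No match of one motif overlapped another in the windows shown.
Cspg4: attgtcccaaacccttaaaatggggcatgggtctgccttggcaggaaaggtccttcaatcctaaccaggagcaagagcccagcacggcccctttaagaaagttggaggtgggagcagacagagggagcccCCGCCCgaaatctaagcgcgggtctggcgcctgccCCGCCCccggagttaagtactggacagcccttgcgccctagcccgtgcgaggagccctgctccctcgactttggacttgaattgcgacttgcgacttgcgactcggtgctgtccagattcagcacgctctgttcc
Pdpn: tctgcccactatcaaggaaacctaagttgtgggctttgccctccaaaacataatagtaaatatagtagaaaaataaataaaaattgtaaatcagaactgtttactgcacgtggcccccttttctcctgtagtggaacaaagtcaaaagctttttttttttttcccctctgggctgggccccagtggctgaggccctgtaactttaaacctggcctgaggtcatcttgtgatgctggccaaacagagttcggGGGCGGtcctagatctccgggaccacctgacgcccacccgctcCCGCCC
Vim: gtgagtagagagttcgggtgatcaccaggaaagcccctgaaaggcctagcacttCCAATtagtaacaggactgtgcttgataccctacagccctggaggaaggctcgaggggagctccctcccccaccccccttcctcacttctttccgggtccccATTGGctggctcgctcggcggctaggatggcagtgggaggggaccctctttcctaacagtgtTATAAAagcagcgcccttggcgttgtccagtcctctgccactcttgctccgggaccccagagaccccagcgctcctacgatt
S100a4: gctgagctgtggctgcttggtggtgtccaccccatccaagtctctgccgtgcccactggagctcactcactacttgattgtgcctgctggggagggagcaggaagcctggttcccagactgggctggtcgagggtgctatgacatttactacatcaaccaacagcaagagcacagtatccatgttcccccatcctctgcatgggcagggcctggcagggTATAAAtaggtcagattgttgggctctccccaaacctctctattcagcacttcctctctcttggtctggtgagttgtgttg

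Cspg4 and Pdpn held 2 GC boxes each and no TATA box in their windows. Vim held a TATA box 32 bases before the gene start and 2 CCAAT boxes, and S100a4 held a TATA box 31 bases before it. Over all 32851 windows of the table, 13.6% held the TATA box, 37.4% the CCAAT box, 35.7% the GC box and 7.81% the AP-1 element. The matches are a description of the letters in these windows.

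The spread between samples was wider in the tetraploid line. In 6 of the 9 markers the SD was larger over the tetraploid arrays than over the diploid arrays, as did 64.8% of all genes. Markers had a median SD of 0.57 in the tetraploid line and 0.16 in the diploid line, and all genes had 0.34 and 0.24 in the same order. Cspg4 and Thy1 spread by 1.23 and 1.14 in the tetraploid line, and by 0.04 and 0.16 in the diploid line. With 3 arrays per line, 0.1 is the smallest two-sided p of an exact permutation test, and the 6 markers without overlap had it. Pdpn and Vim had 0.2 and S100a4 had 0.6 in that exact test.

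**Figure D5:**
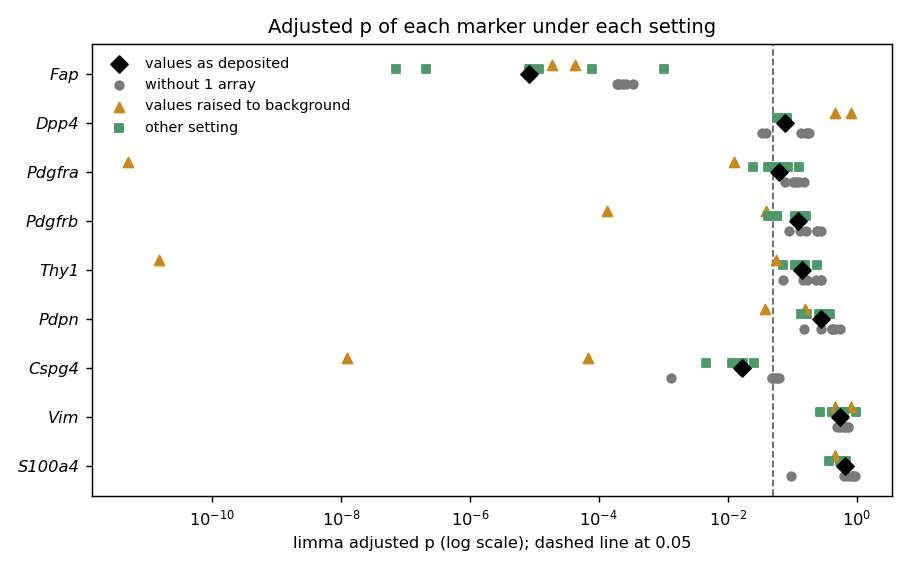
Limma adjusted p, on a log scale, of each of the 9 markers with the values as deposited, without 1 array, with values raised to background and under other settings. The dashed line is at 0.05. All points of Fap lie left of the line and those of S100a4 and Vim right of it, while Pdgfra, Pdgfrb, Thy1, Pdpn, Dpp4 and Cspg4 have points on both sides.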

How the data were processed

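Transcripts were measured in 3 tetraploid and 3 diploid samples with Affymetrix whole-transcript arrays. The authors deposited log2 values, 1 per probe set and array; per the submitters' processing notes they were made with Affymetrix Expression Console, and its version, algorithm and normalization are not given in the sources used here. Raising 2 to the power of the deposited log2 values gave whole hundredths (tolerance 0.001) for 100.0% of those below 1000, and array medians differed by at most 0.0435, so the values were used as deposited. Arrays give no counts, and their number limits the precision.

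Of 28944 probe sets, 21789 carried 1 gene symbol, 1621 several and 5534 none in GEO's platform annotation. An Entrez ID held by the RefSeq table (GRCm38.p6) was found for 21698 of the first kind, and the one with the highest mean per gene left 19856 genes. Between 10212 and 11300 genes lay above background on each array. If no array of a line exceeded background, a fold is computed from values raised to it and given as a lower bound. The adjusted p beside such a bound is that of the deposited values unless raised values are named. If none of the 6 arrays exceeded background, no fold is given. Genes were fitted with limma 3.58.1 in R 4.3.3 (lmFit, eBayes, two-sided), Benjamini-Hochberg adjusted over all genes, with a threshold of 0.05. The fit was tested on simulated data.

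The 9 markers, all gene lists and the tests were chosen with earlier results of these data known. In each related list, the called genes were named, at most the 4 with the largest difference; all PDGF ligands and peptidase relatives were named. The 4 measured neighbours on each side and the 3 nearest profiles were taken for each marker; profiles of Dpp4 are not reported. Alternatives changed the normalization, the filter and background level, the probe set rule, the variance model, array weights and the replicate block, or left out 1 array. Some genes of the lists, such as Loxl2 and Ly6a, had no probe set of their own and were not analysed here.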

Additional observations from a re-analysis of the deposited data

How the results depend on the processing

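Fap kept its direction and its call under all 15 alternatives (adjusted p 7.13e-08 to 0.00102). Cspg4 kept its direction in all 15 and its call in 12, all but those without 1 diploid array. The number of markers called, 2 as deposited, was 4 with values raised to background and 6 with the stricter background (99th percentile). It was 4 with an intensity trend and robust variances, and 1 to 3 without 1 array. Raising added Pdgfra and Pdgfrb, and at the stricter level also Thy1 and Pdpn, all with their own values unchanged. Their p changed there only through the other genes in the fit. The difference of Dpp4 reversed to 0.124 with the first of these raised settings and to 0.0537 with the second, where its own values no longer enter, and that of Vim reversed to 0.0109 with quantile normalization, where the cause was not tested. Over all genes 2770 were called, against 837 to 2532 without 1 array. Of the 160 related genes 56 were called, against 27 to 51, lowest without diploid array 1 or 2. The markers without overlap numbered 6, against 6 to 8. Same-numbered arrays deviated together at correlations of 0.101, 0.0307 and -0.0461 across genes, against -0.142 to 0.129 for arrays of unlike number. The labels do not say whether the numbers pair the samples, and these correlations cannot exclude it, since an effect on few genes would be missed. With a replicate block, 1644 genes, 2 markers and 42 related genes were called. The other alternatives kept these counts within 1.5 times. A signal below about 7.4 has no measurable level, which limits Dpp4 and the tetraploid values of Fap and Cspg4.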

Other observations

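Values as low as those of Fap were rare. Among 19856 genes, 10 lay below 0.1 log2 on all 3 tetraploid arrays and 4 on all 3 diploid arrays. Of the 10, 3 lay above background on all diploid arrays: Fap, the phosphodiesterase-like gene Smpdl3a and the membrane skeleton gene Epb41l4a. Their diploid means were 9.32, 8.17 and 7.44. In the other direction, 0 genes lay below 0.1 on the diploid arrays and above background on all tetraploid arrays. Widely used genes were far from the floor, the lowest value among Actb, Tbp, Hprt, Rplp0, Pgk1, Ppia, B2m and Polr2a being 9.29 for Tbp.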
